A study of Mus musculus with 15 samples.

Results

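The secretory genes of the Paneth cell are described here in the ileum of mice given proanthocyanidins (PAC) by gavage. The 8 genes, Lyz1, Ang4, Mmp7, Itln1, Defa17, Defa24, Clps and Habp2, were taken by name and are 8 of the 17752 genes listed in any mouse. Each was found under its symbol in all 15 mice, and each passed the filter on low counts.

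PAC are plant polymers of flavan-3-ol units, and their mean degree of polymerization (mDP) is the average number of units in a chain. The study compared 2 purified grape pomace fractions that differ in mDP with plain water, to ask whether polymer size matters for the response of the intestine. Female C57BL/6 mice (C57BL/6JOlaHsd by the study's methods), 8 weeks of age by the labels and on a purified diet by the study's methods, were given water, low mDP PAC or medium mDP PAC every 2 days for 10 days, both PAC at 200 mg/kg. The labels call the last group high molecular weight PAC, and it is called medium mDP PAC here after the study's methods. Each group had 5 mice, and 1 library was made from each mouse's piece of ileum, so that only mice are replicates. No transgene or second treatment is given for any group.

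Paneth cells sit at the base of the crypts of the small intestine, between the stem cells, and release granules of antimicrobial proteins into the lumen. Lysozyme, the alpha-defensins and their processing protease keep bacteria away from the crypt, and the same cells feed the stem cells with ligands such as Wnt3. The number of Paneth cells is highest in the ileum.

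In this tissue Defa17, Defa24, Lyz1, Itln1 and Ang4 were among the most abundant genes of all, Clps, Mmp7 and Habp2 were lower, and neither PAC changed any of the 8 detectably. The members varied together from mouse to mouse. All 8 had their lowest value in the same mouse, water mouse 3, and the direction of several small differences from water depended on that mouse. A bulk sample cannot tell fewer Paneth cells from less RNA per Paneth cell.

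The members were first set beside relatives, because reads from near-identical genes can be credited to the wrong one. Defa17 (chromosome 8, 21655780 to 21656735) and Defa24 (chromosome 8, 21734494 to 21735471) are alpha-defensins, small pore-forming peptides. They lie in a cluster of 39 annotated Defa genes on chromosome 8 (GENCODE annotation of GRCm38). Their coding sequences, without the stop codon, are 279 bases long and differ at 12 bases, an identity of 95.7%. Defa30 was nearer to Defa17 than Defa24 was, with 8 differing bases (97.1%), and Defa24 is shown as the other alpha-defensin among the 8 genes. Defa3, in which 90.6% of the 100-base stretches of Defa17 also occur, was not aligned. The last 90 coding bases, which hold 7 of these 12 differences, are shown from 5′ to 3′ with the differing bases in capitals.

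Defa17: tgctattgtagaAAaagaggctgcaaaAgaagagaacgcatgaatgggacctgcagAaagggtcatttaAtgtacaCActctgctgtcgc

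Defa24: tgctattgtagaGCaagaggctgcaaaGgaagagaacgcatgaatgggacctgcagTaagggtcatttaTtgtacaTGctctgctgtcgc

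Lyz1 (chromosome 10, 117287797 to 117292868) is the lysozyme of Paneth cells, and its neighbour Lyz2 (chromosome 10, 117277331 to 117282321) is the lysozyme of macrophages. Their coding sequences of 444 bases are the same at 422 bases. The first 90 coding bases are shown in the same way, with 7 differences.

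Lyz1: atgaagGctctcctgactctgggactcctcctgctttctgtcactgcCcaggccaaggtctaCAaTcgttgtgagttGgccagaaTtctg

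Lyz2: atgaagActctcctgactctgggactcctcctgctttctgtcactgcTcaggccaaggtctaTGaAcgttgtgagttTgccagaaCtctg

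The pair of lysozyme genes is alike upstream as well. The 100 bases before the RefSeq start of Lyz1 (GRCm38.p6, chr10:117292869-117292968, minus strand) and of Lyz2 (chr10:117282273-117282372, minus strand) differ at 8 bases, again in capitals. They are shown because the mRNA levels of the 2 genes in these samples lay far apart.

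Lyz1: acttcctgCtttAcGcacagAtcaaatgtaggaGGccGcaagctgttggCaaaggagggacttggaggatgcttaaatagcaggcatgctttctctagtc

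Lyz2: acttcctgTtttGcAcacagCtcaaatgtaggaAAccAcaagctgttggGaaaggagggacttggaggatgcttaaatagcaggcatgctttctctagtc

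The RefSeq table of promoters held an entry for 5 of the 8 members, and not for Defa17, Defa24 and Clps. Each window covers the promoter and the first transcribed bases. Mmp7 had windows for an earlier and a later start. TATAAA, read on both strands, occurs in 13.6% of the 32851 windows of this length. Among the 5 members it occurs only in the Mmp7 window of the earlier start, from -123 and from -26. CTTTGA, part of the sites of the Wnt effector TCF, occurs in 5257 of the windows and among the members only in those of Mmp7. It lies on the minus strand 5 to 10 bases after the earlier start, not before it. The same site is at -246 to -241 from the later start.

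How far reads could be shared was measured on the GENCODE transcripts. Of the 100-base stretches of Defa17, 90.6% also occur in another gene, most in Defa3. The share was 2.1% for Lyz1, all with Lyz2, and 0 for the other 6 members. With 50-base stretches the shares were 92.0% for Defa17, 28.1% for Defa24, 16.1% for Lyz1, 4.7% for Ang4 and 1.0% for Itln1. An expected count that is not whole shows that reads were divided, between genes or between transcripts of one gene. Within a tolerance of 0.005, the counts of Lyz1, Defa17 and Defa24 were not whole in any of the 15 mice, and those of Mmp7, Itln1 and Clps were whole in all 15. That of Ang4 was whole in 13 of 15 mice, and that of Habp2, which shares no such stretch with another gene, in 1 of 15. The level of Defa17 is thus an estimate that depends on how reads were divided within the family.

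Levels between genes were compared as FPKM, which corrects a gene's fragments for transcript length and for library size. Defa17 had the highest mean FPKM of all genes, 12093 over 15 mice, and Defa24 ranked 4th with 10496. Lyz1 ranked 12th with 6022. Itln1 (chromosome 1, 171518122 to 171535294), which encodes intelectin 1, a lectin that binds microbial sugars, ranked 27th with 2291. Ang4 (chromosome 14, 51763878 to 51773590), an antimicrobial ribonuclease, ranked 36th with 1467. Clps (chromosome 17, 28558149 to 28560766), the cofactor of lipases best known from the pancreas, had 315 and ranked 234th. Mmp7 (chromosome 9, 7692090 to 7699585), the matrix metalloproteinase matrilysin that cleaves pro-defensins in mice, had 224 and ranked 329th. Habp2 (chromosome 19, 56287137 to 56320822), a hyaluronan-binding serine protease of plasma, ranked 3437th with 22.02. The SD over all mice was 2630 for Defa17 and 2601 for Defa24, and their ranges over mice overlapped, but within every mouse Defa24 was below Defa17, at a ratio between 0.650 and 0.968. Clps (SD 60.1) and Mmp7 (SD 44.3) overlapped as well, with ranges from 134 to 388 and from 138 to 292, and Clps was above Mmp7 in every mouse but water mouse 3. The 8 members together took 0.926% to 2.48% of a mouse's expected counts and 3.19% to 6.78% of its summed FPKM.

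The values that follow are FPKM in mice 1 to 5 of each group, as drawn in the plot of FPKM by mouse. Lyz1 was 5391, 6196, 3166, 6372 and 7037 with water, 5077, 6836, 5806, 6453 and 5726 with low mDP PAC, and 5985, 6429, 7772, 6315 and 5760 with medium mDP PAC. Water mouse 3 was lowest and the third medium mDP mouse highest, and the groups overlapped.

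Defa17 was 8666, 12136, 5492, 13061 and 13675 with water, 10956, 13662, 13812, 10145 and 10877 with low mDP PAC, and 12099, 13729, 16617, 13629 and 12844 with medium mDP PAC. The same mice were lowest and highest, and 2 of the 5 medium mDP mice were above every water mouse. Defa24 was 7682, 11168, 5318, 11414 and 11958 with water, 9310, 11882, 11815, 6595 and 9445 with low mDP PAC, and 10640, 11547, 16055, 12253 and 10363 with medium mDP PAC. It followed Defa17 closely except in low mDP mouse 4, where the ratio of Defa24 to Defa17 was 0.650 against 0.807 to 0.968 over the water and medium mDP mice.

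Itln1 was 1841, 2484, 1112, 2401 and 2406 with water, 2161, 2457, 2334, 1992 and 2245 with low mDP PAC, and 2349, 2637, 2983, 2648 and 2321 with medium mDP PAC. In 3 of the 5 medium mDP mice it was above every water mouse, and in 3 of 5 above every low mDP mouse. Ang4 was 1209, 1901, 644, 1908 and 1629 with water, 1519, 1781, 1269, 1487 and 1306 with low mDP PAC, and 1502, 1524, 1806, 1366 and 1154 with medium mDP PAC. Its highest values lay in water mice 2 and 4.

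Mmp7 was 208, 245, 138, 246 and 282 with water, 197, 292, 224, 171 and 185 with low mDP PAC, and 209, 235, 288, 249 and 193 with medium mDP PAC. Clps was 264, 322, 134, 372 and 343 with water, 292, 329, 343, 343 and 280 with low mDP PAC, and 301, 347, 388, 343 and 330 with medium mDP PAC. Habp2 was 21.3, 25.5, 11.9, 22.1 and 24.5 with water, between 19.8 and 26.3 (median 22.1) with low mDP PAC, and 20.8, 22.4, 22.7, 24.3 and 21.8 with medium mDP PAC. In 3 of the 5 medium mDP mice Clps was above every low mDP mouse, by less than 1 FPKM in the lowest of the 3. In these 3 genes the groups overlapped, and water mouse 3 was again below all others.

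**Figure D1:**
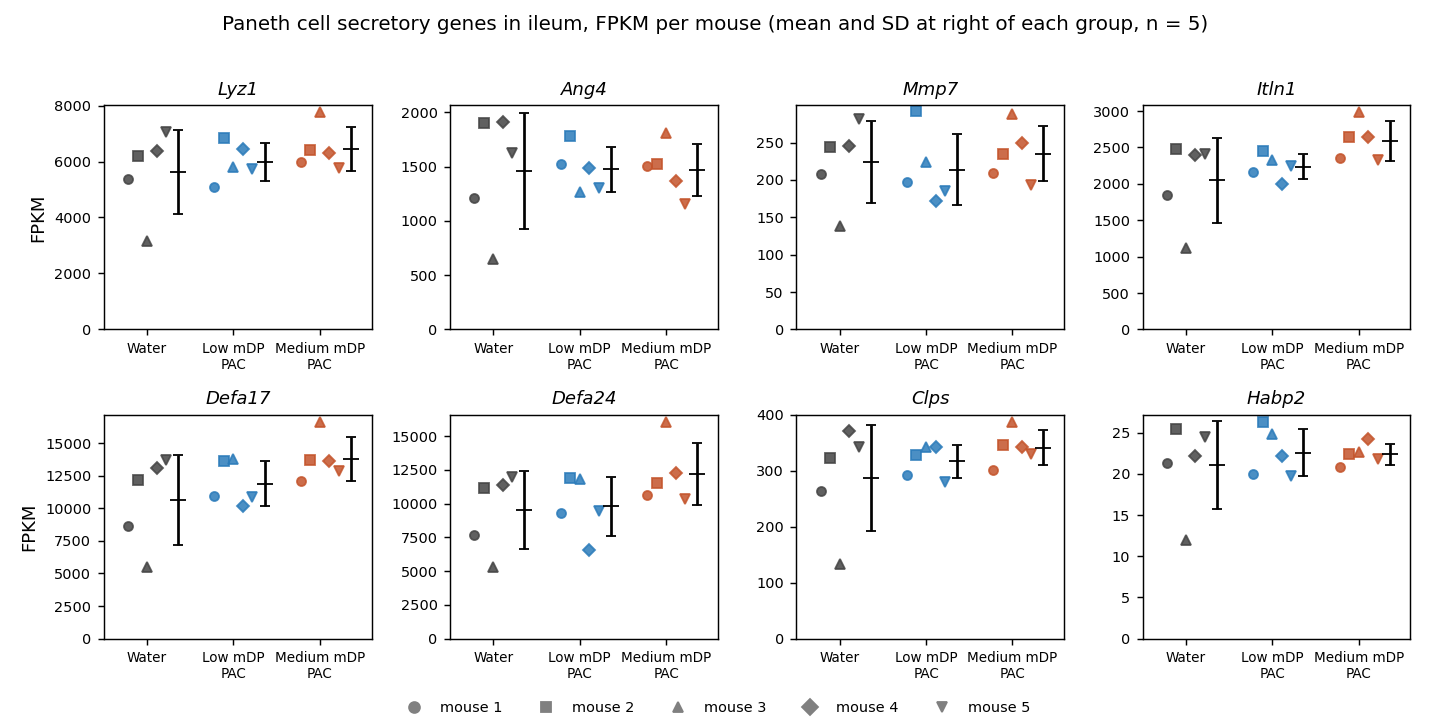
FPKM of the 8 genes (y axis, from 0) in each of 15 mice by group (x axis), with a symbol for each replicate number and the mean and SD of 5 mice at the right of each group. Water mouse 3 is the lowest point in every panel, and the groups overlap in every panel.

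Medium mDP PAC against water asks whether the longer polymer altered the gene. Differences are given as log2 fold changes from edgeR on the expected counts. None of the 8 members had an adjusted p under 0.05 in edgeR's quasi-likelihood test, where 0.0139% of all genes tested did (2 of 14386). None had an unadjusted p under 0.05 either, where 14.8% of all genes did. The largest difference was that of Defa17, 0.29 (SE 0.19, edgeR adjusted p = 0.467), with a 95% interval from -0.12 to 0.71. Defa24 was at 0.27 (SE 0.21, edgeR adjusted p = 0.532) and Itln1 at 0.25 (SE 0.17, edgeR adjusted p = 0.477). Clps was at 0.17, Lyz1 at 0.11, Habp2 at 0.00, Mmp7 at -0.02 and Ang4 at -0.08, with edgeR adjusted p between 0.675 and 0.996. The median of the 8 was 0.14, and that of all genes tested 0.00. In an exact permutation test (two-sided) on log2(FPKM + 0.1), whose smallest possible p is 0.0079, p was between 0.0794 for Itln1 and 0.833 for Ang4.

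Over the members the 95% intervals reached from 0.688-fold to 1.64-fold.

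Low mDP PAC against water asks the same of the shorter polymer. Of the 8 members, 0 were called by edgeR, as were 0.0% of all genes, and 0 had an unadjusted p under 0.05, against 3.61% of all genes. The log2 fold changes lay between -0.10 for Mmp7 and 0.14 for Defa17, with a median of 0.04, beside -0.01 for all genes tested. Lyz1 was at 0.04 (SE 0.17, edgeR adjusted p = 0.989), with a 95% interval from -0.32 to 0.40. The two-sided exact permutation p was between 0.484 and 0.849.

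The 2 PAC were compared directly at the matched dose and times, as 1 pair of fractions that differ in mean chain length. For medium against low mDP PAC, 0 of 8 members were called by edgeR (0.0% of all genes), and 0 had an unadjusted p under 0.05 (3.89% of all genes). The log2 fold changes lay between -0.05 for Ang4 and 0.25 for Defa24, with a median of 0.08, beside 0.00 for all genes tested. Without medium mDP mouse 3 the median was 0.026 and Defa24 was at 0.16. Over all mice the 95% interval was, for Defa24, -0.19 to 0.70, for Lyz1 -0.30 to 0.43, and for Ang4 -0.52 to 0.41. Itln1, at 0.17 (SE 0.17, edgeR adjusted p = 0.907), had a two-sided exact permutation p of 0.0476 on FPKM. On TMM-normalized counts this exact p was 0.127, and 24 such tests of members were made over the 3 comparisons. These intervals do not show that both fractions act alike on the genes.

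**Figure D2:**
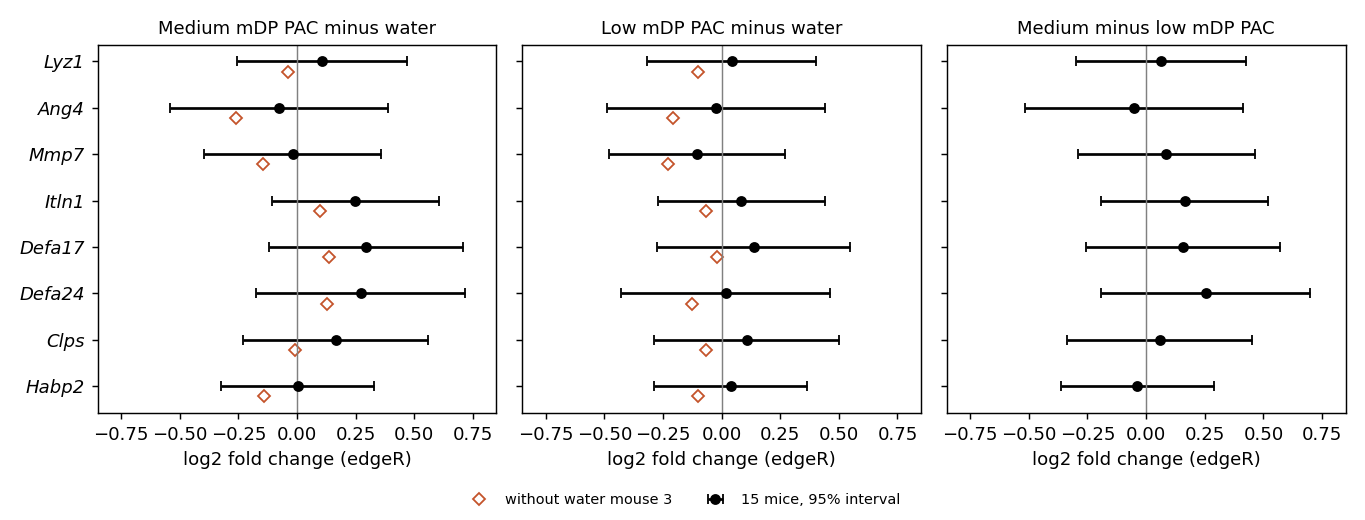
Log2 fold changes of the 8 genes (x axis) in the 3 comparisons, from edgeR over 15 mice (filled points, bars are 95% intervals) and, for the comparisons with water, without water mouse 3 (open diamonds). Every interval includes 0, and every open diamond lies below its filled point.

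In each comparison 6 of the 8 members were higher in the first group, but the comparisons share mice, and the members move together. Without water mouse 3 (added beside the fit of all mice because this mouse stood apart) the medium mDP difference was above 0 in 3 of the 8 members, with a median of -0.02. The low mDP difference was above 0 in 0 of 8, with a median of -0.10. Lyz1 went from 0.11 to -0.04 and from 0.04 to -0.10, and Defa17 from 0.29 to 0.14 and from 0.14 to -0.02. With medium mDP PAC against water Defa24 went from 0.27 to 0.13 and Itln1 from 0.25 to 0.098. In that comparison Ang4 went farther from 0, from -0.08 to -0.26, as did Mmp7, from -0.02 to -0.14. With low mDP PAC against water Ang4 went from -0.02 to -0.21 and Mmp7 from -0.10 to -0.23. None of these was called, and the adjusted p of a member was at least 0.278 over all 27 alternatives run, the lowest being that of Itln1 in limma for medium mDP PAC against water.

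Summing reads over relatives left the same picture. All 25 listed Defa genes taken as one gave a log2 fold change of 0.26 for medium mDP PAC against water (SE 0.20, edgeR adjusted p = 0.539), 0.09 for low mDP PAC against water (edgeR adjusted p = 0.983) and 0.16 between the PAC (edgeR adjusted p = 0.913). This sum was taken by symbol. Genes under other symbols that share stretches with Defa genes, such as Gm14851 and AY761184, were not in it. Lyz1 with Lyz2 gave 0.11 for medium mDP PAC against water (edgeR adjusted p = 0.775). Ang4 with the other Ang genes gave -0.07 for that comparison (edgeR adjusted p = 0.899).

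The spread between mice of a group was larger in the members than in most genes. Their SD of log2(FPKM + 0.1) within groups was between 0.28 for Habp2 and 0.42 for Ang4, where the median over all genes tested was 0.19. Without water mouse 3 it was between 0.14 for Habp2 and 0.30 for Defa24. Itln1 was then at 0.15, Clps and Lyz1 at 0.16, Defa17 at 0.22, Mmp7 at 0.24 and Ang4 at 0.25. The median over all genes was not computed without that mouse.

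Water mouse 3 was below every other mouse in all 8 members, on FPKM and on TMM-normalized counts. Of all genes tested, 12.1% had their lowest FPKM in this mouse. Relative to the mean of the other 4 water mice, its FPKM was 0.388 for Ang4, 0.411 for Clps, 0.462 for Defa17, 0.487 for Itln1, 0.504 for Defa24, 0.507 for Lyz1, 0.511 for Habp2 and 0.565 for Mmp7. Its library was not shallow, with 17469781 expected counts, but its summed FPKM was the lowest of all 15 mice, 502110. That sum includes the members and the other Defa genes, so that it is not a separate trait of the library. The 25 listed Defa genes summed to 46529 FPKM in this mouse, where the median of the water group was 100801. Medium mDP mouse 3 was the highest of all 15 mice in 5 members by FPKM and in 4 by TMM-normalized counts. Its summed FPKM was also the highest, 677075 against at most 573980 in the other 14 mice, and 27.8% of all genes had their highest FPKM there.

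**Figure D3:**
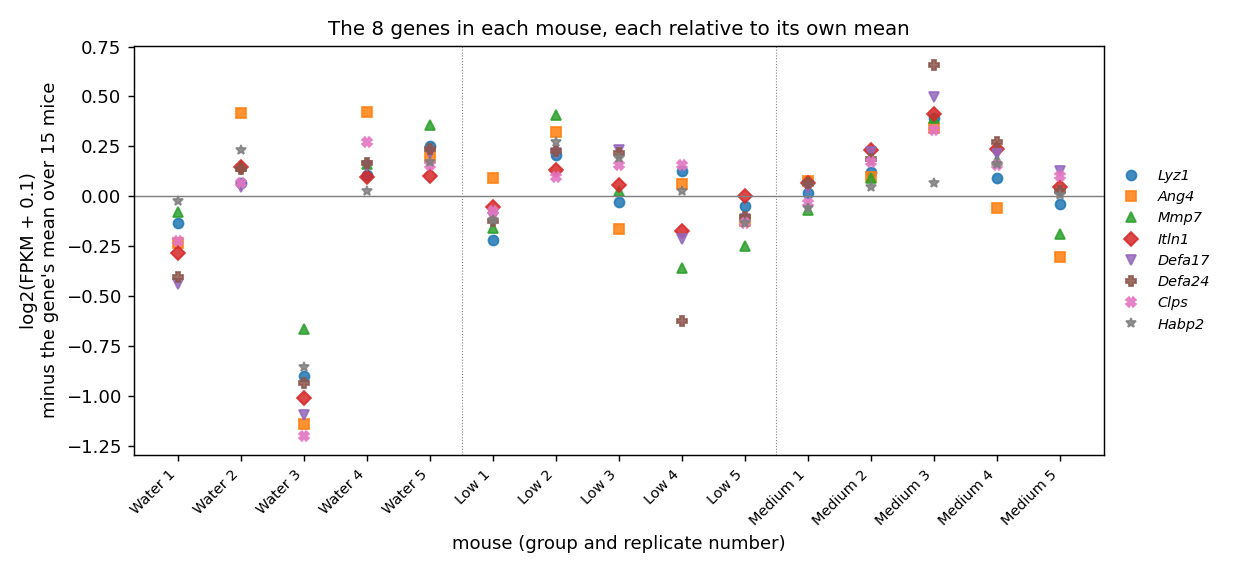
The 8 genes in each mouse (x axis, group and replicate number) as log2(FPKM + 0.1) minus the gene's own mean over 15 mice (y axis). The points of a mouse lie close together, between -1.20 and -0.67 in water mouse 3, and Defa24 stands apart at -0.62 in low mDP mouse 4.

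The members tracked each other across mice. Over the 28 pairs, Pearson's r of the log2 FPKM, centred within groups, was between 0.77 and 0.97 with a median of 0.90 over the 15 mice. Without water mouse 3 it was between 0.34 and 0.93 with a median of 0.67. These values describe 15 libraries that share tissue pieces and scaling, and the alpha-defensins also share reads.

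The genes most like the mean of the 8 members by this measure, among the 12429 genes at or above a mean FPKM of 1, were Gm14851 (r = 0.98), Defa23 (0.97), Defa21 (0.96), AY761184 (0.96) and Defa22 (0.96). Gm14851 is a predicted gene, and 55.6% of its 50-base stretches occur in other genes, most of them in Defa29. The share was 33.5% for AY761184. With 100-base stretches the shares were 17.9% for Gm14851 and 0.0% for AY761184. Lyz1 was most like Gm15292 (r = 0.95), Tmprss2 (0.94), Gm14851 (0.94), Defa26 (0.94) and Clps (0.94). Tmprss2, a transmembrane serine protease of epithelia, shares no 50-base stretch with another gene. Without water mouse 3 its r with Lyz1 was 0.83.

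Clps was most like Gm14851 (r = 0.95), Hpd (0.95), Lyz1 (0.94), Wnt3 (0.93) and Defa26 (0.93). Hpd encodes an enzyme of tyrosine breakdown. Of 18 genes listed for the exocrine pancreas 12 were found and 4 passed the filter. Cpa1 was at most 0.04 FPKM, Cel at most 0.03 and Prss2 at most 0.08 FPKM in any mouse. Others on that list were higher, with Cela1 between 1.35 and 2.84 FPKM, Pnliprp1 between 0.71 and 2.22 and Gp2 between 0.12 and 3.18. None of the 4 genes tested was called, and the part of such tissue in the values of Clps was not tested. Zg16, on that list too, is a goblet cell gene as well.

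Wnt3, the ligand that Paneth cells supply to stem cells, was 1.21 FPKM in water mouse 3 and 2.55 to 3.25 in the other 14 mice. Its r with Clps was 0.56 without that mouse. Wnt3 counts were low, between 64 and 170 per mouse. Pnliprp2, a lipase related to the pancreatic enzyme, was 53.6 FPKM in water mouse 3 and 101 to 164 elsewhere.

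Most of the alpha-defensins had the same shape. Of the 24 Defa genes at or above a mean FPKM of 1, with Defa17 and Defa24 among them, 20 were lowest in water mouse 3. Defa34, Defa28, Defa6 and Defa25 were not. The 25 listed Defa genes took between 9.27% and 20.3% of the summed FPKM of a mouse. Defa2, with a mean FPKM of 11065, and Defa20, with 10783, stood between Defa17 and Defa24 in level. Defa31 ranged from 0 in water mouse 3 and 0.01 in low mDP mouse 5 to 386 in water mouse 2, although genes of near sequence were abundant in every mouse, so that it is only said to be listed at 0.

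**Figure D4:**
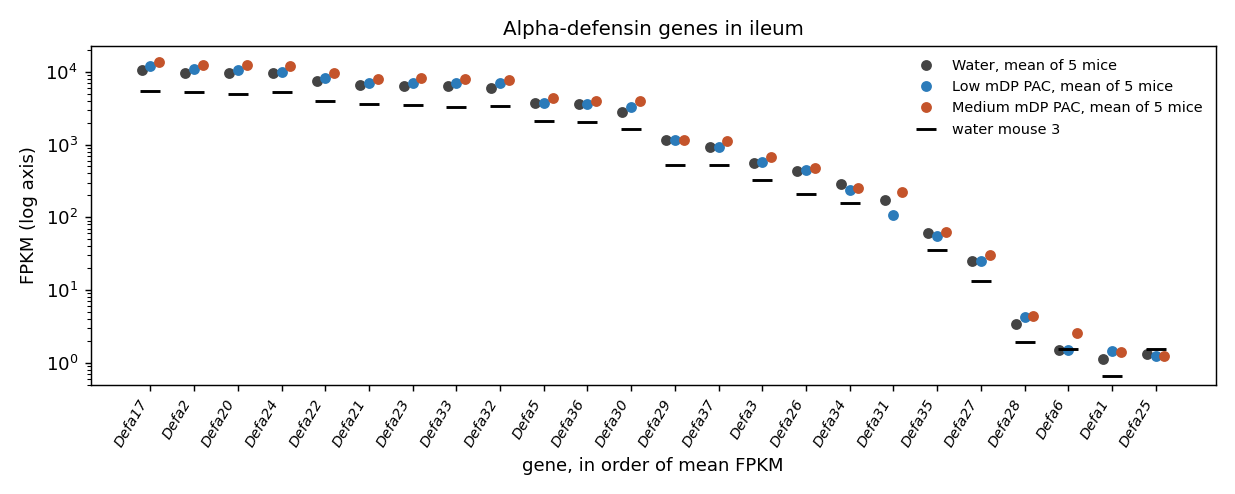
Mean FPKM over 5 mice (log axis) of 24 alpha-defensin genes in order of level, by group, with the value of water mouse 3 as a bar, which is left out for Defa31, listed at 0. The bar lies below the group means for most genes. The 3 group means lie farther apart for Defa31, at 173, 107 and 221 FPKM with water, low and medium mDP PAC, than for the abundant genes.

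The lists of related genes were written with earlier results of these data known, so that their counts are descriptions. Of 35 other genes of the Paneth granule, 23 were in the files and 21 were tested. For medium mDP PAC against water 15 were higher and 6 lower, and 2, both higher, had an unadjusted p under 0.05 (4.37% of all genes were higher at that level), but none was called. These were Pnliprp2 (log2 fold change 0.37, edgeR adjusted p = 0.329) and Defa30 (0.42, edgeR adjusted p = 0.333). For low mDP PAC against water 11 were higher and 10 lower. Mptx2, a mucosal pentraxin of Paneth cells, had a mean of 895 FPKM and ranged from 467 in water mouse 3 to 1603.

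Regulators and niche factors spanned a wide range of levels, from 2.26 FPKM for Gfi1 to 695 for Agr2 among the former by the mean over 15 mice. Of 16 genes for Paneth cell specification and secretion, 8 were higher and 8 lower with medium mDP PAC than with water, and none was called. At an unadjusted p under 0.05, 4 were lower and 0 higher (10.4% of all genes were lower and 4.37% higher at that level). With medium against low mDP PAC 4 were higher and 12 lower, and none was called. The smallest p-values were those of Fzd5, a Wnt receptor needed for Paneth cell maturation (log2 fold change -0.29, edgeR adjusted p = 0.214), and of Ern1, a sensor of unfolded protein (-0.34, edgeR adjusted p = 0.274). Of 8 niche ligands 6 were tested, and 2 were higher and 4 lower with medium mDP PAC than with water, none of them called. At an unadjusted p under 0.05, 1 was higher, Egf, and 0 were lower (4.37% of all genes were higher at that level). Egf was at 0.51 (edgeR unadjusted p = 0.0043, edgeR adjusted p = 0.202). Its group means were 0.714, 0.876 and 1.07 FPKM with water, low and medium mDP PAC. Dll1, a Notch ligand, was at -0.16 (edgeR adjusted p = 0.375). Atoh1, the master regulator of the secretory lineage, was between 18.5 and 26.9 FPKM in all mice. Of 10 autophagy and microbe-sensing genes of Paneth cells, 3 were higher and 7 lower with medium mDP PAC than with water, and none was called.

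Markers of other cells varied between the tissue pieces as well, and their part in the members' values was not tested. Smooth muscle markers (8 of 8 in the files) were lowest in water mouse 3 and next lowest in water mouse 1, and their summed FPKM ran from 271 to 917 with water, 570 to 1005 with low mDP PAC and 692 to 1104 with medium mDP PAC. Markers of the Peyer's patch B cell (8 of 8) summed to 8.03 to 158, 8.35 to 78.3 and 5.98 to 235 FPKM in the same order. Of the 8 crypt stem cell markers, all were higher with medium mDP PAC than with water, 2 of them at an unadjusted p under 0.05 (4.37% of all genes were higher at that level), and their mean was lowest in water mouse 3. These were Slc12a2 (log2 fold change 0.24, edgeR adjusted p = 0.329) and Smoc2 (0.23, edgeR adjusted p = 0.336). Of the 8 enterocyte markers, 7 were lower with medium mDP PAC than with water, 6 at an unadjusted p under 0.05 (10.4% of all genes were lower at that level) and 0 called, and their mean was highest in water mouse 3 and lowest in medium mDP mouse 3. The smallest p-values were those of Apoa1 (-0.50, edgeR adjusted p = 0.195) and Anpep (-0.53, edgeR adjusted p = 0.268). The goblet cell markers, too, had their lowest mean on the log2 scale in water mouse 3, but not every marker was low there. Spink4 was lowest in that mouse, at 615 FPKM, while Tff3, Clca1 and Zg16 were lowest in water mouse 5. The mean includes Retnlb, at 0.09 FPKM in water mouse 3.

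The labels name the tissue only as intestinal, and the pieces carried markers of the ileum. Fabp6, the ileal bile acid-binding protein, was between 4196 and 10620 FPKM in all mice and 6739 in water mouse 3. Of the 6 markers of the more proximal small intestine 4 were tested, and with medium mDP PAC 3 were lower and 1 higher than with water, none of them called. Gata4, a transcription factor, had group means of 7.09, 2.76 and 1.33 FPKM with water, low and medium mDP PAC (medium mDP PAC against water -2.48 on the log2 scale, unadjusted p = 0.0052, edgeR adjusted p = 0.211). It was 4.04 FPKM in water mouse 3 and highest in water mice 4 and 5, at 12.5 and 12.7. Lct, the lactase gene, had means of 56.3, 27.7 and 17.3 FPKM in the same order (-1.77, edgeR adjusted p = 0.352). Slc40a1, the iron exporter, was the 1 higher, and Cybrd1 was between 2.49 and 3.65 FPKM in all mice. Of the liver list (8 of 8 in the files), Alb was at most 0.54 FPKM, while Ttr ran from 1.36 to 4.73 FPKM and was at 0.65 for medium mDP PAC against water (unadjusted p = 0.028, edgeR adjusted p = 0.291). The mean of Ttr and Apoh, the most abundant of the list, was highest in medium mDP mouse 3. The part of these markers in the members' values was not tested.

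Lyz1 and Lyz2 were far apart in level in every mouse despite their likeness. Lyz1 was between 39.1 and 143 times Lyz2 by FPKM, and Lyz2 ranged from 44.5 to 173 FPKM. Lyz2 was not low in water mouse 3, at 81.0 FPKM, where Lyz1 had its lowest value. Ang, a relative of Ang4 found in many tissues, was 45.04 FPKM in water mouse 3 and 36.4 to 62.6 elsewhere, so that it did not share the low value of Ang4 in that mouse.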

How the data were processed

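Values of 15 mice, 5 per group, were analysed. Per the study's methods, paired-end reads were cleaned with SOAPnuke and mapped to mm10 with Bowtie2. The submitters' processing notes list HISAT and DESeq2. The counting tool is not given in the sources used here. The authors deposited an expected count per gene, an estimate that is not normalized, and its FPKM, scaled by length and library. A gene missing from a file was set to 0. Expected counts summed to 15963086 to 17903886 per mouse, so that for abundant genes the spread between mice, not counting error, sets the precision. Between 88.6% and 89.5% of the values were exactly whole as deposited.

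Expected counts were rounded and fitted with edgeR 4.0.16 (TMM, filterByExpr, quasi-likelihood test, 14386 genes, 3 groups in 1 model) in R 4.3.3, with Benjamini-Hochberg adjustment over all genes tested and a threshold of 0.05. Standard errors came from the test statistic. Alternatives used DESeq2 1.42.0 and limma 3.58.1. Sequences and coordinates came from GENCODE M21 and RefSeq (GRCm38.p6). The fit was tested on simulated data. The members and lists were chosen with earlier results of these data known. The rule for naming gave, from each list, genes called and the 2 with the smallest p per comparison, family genes at or above a mean FPKM of 1, and the 5 genes most like Lyz1, Clps and the members' mean. Of the list and family genes the text names only some, and no list gene was called. The study's own NOIseq test was not run here.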

Additional observations from a re-analysis of the deposited data

Results flagged for a closer look

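Among 120 groups of 5 mice (40 genes, 3 groups each), 4 held a mouse whose gap to the next, relative to the range of its group, passed Dixon's limit of 0.71 at the 95% level. Chance flags about 1 in 20 groups. None of the 8 members was among them. In low mDP mouse 2, Defa27 was at 44.53 FPKM and Mptx2 at 1602.72 FPKM, each the highest of its group. Defa6 was at 5.68 FPKM in medium mDP mouse 3, and Defa1 at 2.58 FPKM in water mouse 5, both at low levels. The low values of water mouse 3 did not pass this limit in any member, and in each member water mouse 1 lay between it and the other 3 water mice.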

How the results depend on the processing

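No member was called under any alternative run: upper-quartile or RLE normalization, no filter on low counts, DESeq2, limma on log2(FPKM + 0.1), the 2 compared groups alone, the replicate block, each mouse left out in turn, and water and medium mDP mouse 3 left out together, which was chosen after seeing the data. The count over all genes depended on the test. Medium mDP PAC against water gave 2 genes in edgeR, 112 in DESeq2 over all genes tested, 136 with DESeq2's own filter, 9 in limma and 4 with the 2 groups alone, and low mDP PAC against water gave 0 in edgeR and 2 in DESeq2 both ways. The cause was not tested. Leaving out single mice gave 2 to 11 genes for medium mDP PAC against water (11 without medium mDP mouse 2, 4 without water mouse 2), 0 to 1 for low mDP PAC against water (1 without low mDP mouse 2) and 0 to 0 between the PAC.

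For mice of equal replicate number, the correlation of their deviations was over 0.1 in 3, 2 and 0 of 5 pairs in the 3 comparisons. Its mean was 0.149, 0.123 and -0.123, beside -0.038, -0.031 and 0.032 for mice of different numbers. So few pairs cannot settle whether the numbers pair the mice. With the replicate block 2, 0 and 0 genes and 0 members were called. It changed no call, and Ang4 with low mDP PAC against water went to 0.0046.

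Log2 fold changes near 0 changed sign under some settings, and the cause was not tested beyond the mice left out. For medium mDP PAC against water Mmp7 went to 0.039 with upper-quartile normalization, 0.0071 with no filter and 0.096 in limma, where Ang4 was at 0.10. Ang4 with low mDP PAC against water was at 0.11 in limma. Without water and medium mDP mouse 3, Lyz1 went to -0.084, Clps to -0.029 and Habp2 to -0.12 for medium mDP PAC against water. For low mDP PAC against water Lyz1 went to -0.092, Itln1 to -0.057, Defa17 to -0.012, Defa24 to -0.12, Clps to -0.059 and Habp2 to -0.091.

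Leaving out single mice, the edgeR log2 fold change of medium mDP PAC against water ranged from -0.038 to 0.18 for Lyz1, -0.26 to 0.045 for Ang4, -0.14 to 0.057 for Mmp7, -0.010 to 0.28 for Clps and -0.14 to 0.080 for Habp2. For low mDP PAC against water it ranged from -0.10 to 0.12 for Lyz1, -0.21 to 0.097 for Ang4, -0.067 to 0.16 for Itln1, -0.020 to 0.23 for Defa17, -0.13 to 0.13 for Defa24, -0.068 to 0.22 for Clps and -0.10 to 0.12 for Habp2, and between the PAC from -0.11 to 0.043 for Ang4 and -0.091 to 0.047 for Habp2. The lowest edgeR values of both comparisons with water, except that of Mmp7 with low mDP PAC, came without water mouse 3. Mean log2 FPKM differences of medium mDP PAC against water ranged from -0.17 to 0.22 for Ang4, -0.067 to 0.19 for Mmp7 and -0.060 to 0.21 for Habp2. Those of low mDP PAC against water ranged from -0.065 to 0.22 for Lyz1, -0.16 to 0.23 for Ang4, -0.21 to 0.041 for Mmp7, -0.022 to 0.27 for Itln1, -0.12 to 0.21 for Defa24, -0.030 to 0.34 for Clps and -0.054 to 0.22 for Habp2, and those between the PAC from -0.085 to 0.077 for Ang4 and -0.052 to 0.051 for Habp2. The exact permutation p of Itln1 between the PAC rose from 0.0476 to between 0.0556 and 0.0952 without any 1 of 7 mice, and that with medium mDP PAC against water fell from 0.0794 to 0.0476 without water mouse 2. Without water mouse 5 that of Defa17 with medium mDP PAC against water fell to 0.0397.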
